A study of Mus musculus with 2 samples.

Results

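The replication-dependent histone genes of mouse chromosome 13 were described from maps of open chromatin in hippocampus. The genes were chosen by name: all protein-coding genes of GENCODE M21 on chromosome 13 whose symbol starts with Hist1h, which gave 54 of 21853 protein-coding genes (mm10 assembly). They comprise 6 H1, 13 H2A, 15 H2B, 9 H3 and 11 H4 genes. Chromatin was assayed by DNase-seq, in which the nuclease DNase I cuts DNA that is not covered by nucleosomes or other proteins, so that cuts pile up at open regulatory sequence. There were 2 libraries of 1 group, biological replicates 1 and 2, from the hippocampus (labelled as a layer of hippocampus) of female B6CASTF1/J mice, a first-generation hybrid strain, at 14 days of age. Each label names 3 females, and both labels carry the same donor identifier. No source used here says whether the animals were separate, so differences between the libraries may be technical. The labels give no treatment or second condition, so each value is given in both libraries beside the same measure over all protein-coding genes, without a test.

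Histone genes of this type supply the bulk of the histones that package newly copied DNA, and their transcription peaks in S phase of the cell cycle. They have no introns in their coding sequence, and most of their mRNAs end in a conserved stem-loop instead of a poly(A) tail. The cluster is known for assembling the histone locus body, a nuclear structure that holds NPAT, the coactivator of histone transcription, and the factors that process histone mRNA. In the hippocampus the dentate gyrus goes on producing neurons after birth, while most other neurons have left the cell cycle. The libraries hold a mixture of cell types, and a weak opening in all cells cannot be told apart from a strong opening in few cells.

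There were 115699 deposited peaks for replicate 1 and 167829 for replicate 2. Peak signal is the authors' value per peak on a scale that is not stated and that differs between the libraries, so depth in reads is unknown and values are read against other genes of the same library. Promoter peaks were present in both libraries at 6 of 7 neuron markers, 4 of 4 astrocyte markers, 3 of 4 oligodendrocyte lineage markers and 2 of 3 microglia markers. They were present at 0 of 3 liver markers and 0 of 3 muscle markers. All 4 markers of cycling cells had a promoter peak in both. Over all protein-coding genes the share with a peak in both was 61.9%. The cycling markers had a median observed over expected CpG of 0.842. Among all genes with such values between 0.797 and 0.928 the share was 96.1%. Whether cycling cells were present was not tested.

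The cluster was open at most of its promoters. A peak lay within 500 bp of a start in 46 of the 54 histone genes in replicate 1, in 46 in replicate 2 and in the same 46 in both, which is 85.2%. The background over all protein-coding genes was 66% in replicate 1, 63.5% in replicate 2 and 61.9% in both. A footprint, a short run of bases shielded from cutting inside open chromatin, lay near a start in both libraries in 45 of the 54, against 60.2% of all protein-coding genes. The 9 H3 and 11 H4 genes all had a promoter peak in both libraries, as did 10 of 13 H2A, 12 of 15 H2B and 4 of 6 H1 genes. Promoters of these genes are rich in CpG, with a median observed over expected CpG of 0.876, against 0.552 over all genes. Among the 3256 protein-coding genes between the quartiles of the histone genes' CpG values (0.797 to 0.928), 96.1% had a promoter peak in both libraries.

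The genes lay in 4 sub-clusters, split where neighbouring genes are over 100 kb apart. Sub-cluster A held 18 genes in 118 kb (chr13:21716143-21833743), sub-cluster B held 5 genes in 7.65 kb (chr13:22035568-22043214), sub-cluster C held 29 genes in 233 kb (chr13:23531050-23763666) and sub-cluster D held 2 genes (chr13:23934156-23934462). Peaks were several times denser there than on the chromosome as a whole. Sub-cluster A had 187 peaks per Mb in replicate 1 and 204 in replicate 2, and sub-cluster C had 193 and 202, against 42.2 and 63.8 per Mb over chromosome 13. Sub-cluster D had no peak in either library.

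**Figure D1:**
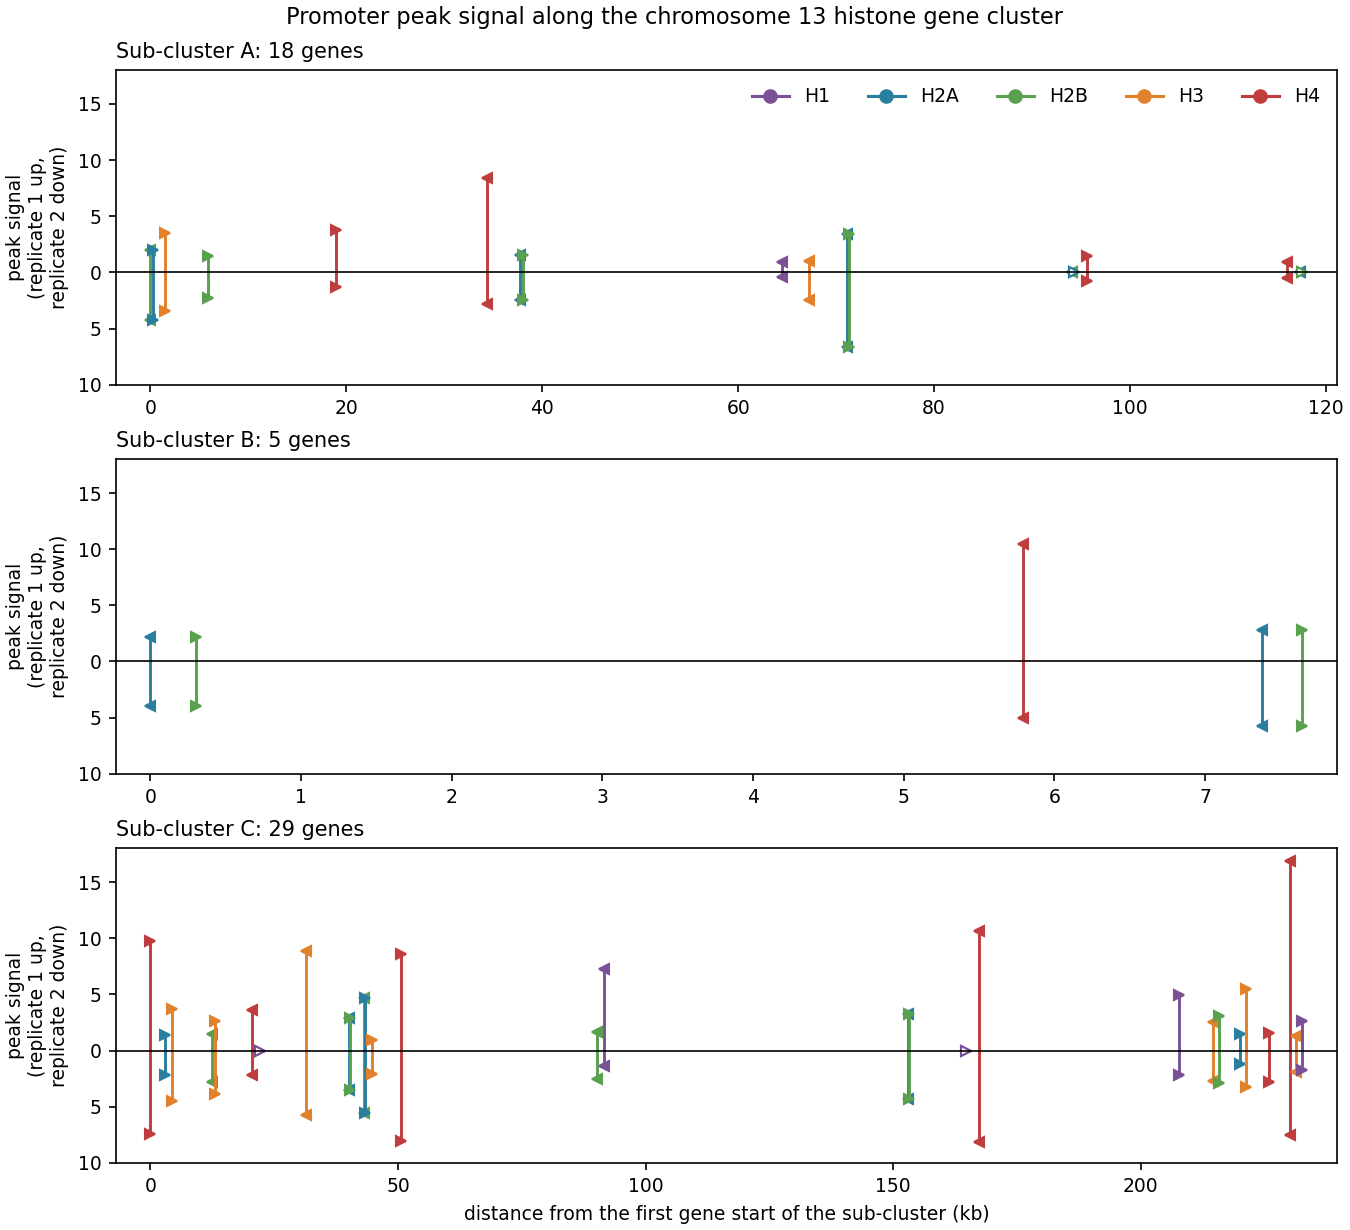
Strongest promoter peak signal (authors' units) of each gene in sub-clusters A, B and C, by distance in kb from the first gene start; replicate 1 is drawn upward and replicate 2 downward. Arrowheads give the strand, colours the histone class, and open arrowheads at 0 mark genes with no peak; the tallest stem, at the right of sub-cluster C, is Hist1h4a, with 16.9 in replicate 1 and 7.56 in replicate 2.

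H4 is the core histone that pairs with H3, and the 11 H4 genes encode 1 identical protein. They held the strongest promoters of the cluster in both libraries. Hist1h4a (chr13:23760692-23761230, minus strand) reached 16.9 in replicate 1 and 7.56 in replicate 2, above 94.9% and 94.5% of protein-coding genes with a promoter peak. Hist1h4c had 10.6 and 8.14, Hist1h4i 10.5 and 5.05, and Hist1h4h 9.79 and 7.41. The H4 median was 8.45 in replicate 1 and 2.84 in replicate 2, with a range of 0.897 to 16.9 and of 0.479 to 8.14. The lowest H4 gene was Hist1h4n, at 0.897 and 0.479, followed in replicate 1 by Hist1h4m at 1.46 and 0.721. In those 2 genes 96.8% and 93.6% of the 36-base words near the start also occur elsewhere in the genome. Of 75-base words it was 92.5% and 85.8%. The part of repeats in the low values of Hist1h4n and Hist1h4m was not tested, since neither the read length nor the handling of repeated reads is given.

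H4 promoters are known to carry a class-specific element, with the core GGTCCG, that the zinc finger factor HINFP binds in human cells. The 6 letters were found, on either strand, in 10 of 11 H4 promoters (250 bases before to 50 after the start), which is 90.9%, against 9.59% of all protein-coding promoters. All 10 matches lay on the strand of the gene. They are shown because this was the motif whose matches most often coincided with footprints in the cluster. Each line gives 30 bases of the strand of the gene from the GRCm38.p6 genome, 5′ to 3′, with the core in capitals.
Hist1h4j: ttctcatttcGGTCCGcccgctacagtata
Hist1h4k: ttctcatttcGGTCCGcccgccgcagtata
Hist1h4m: ttttcactccGGTCCGcaagttccctataa
Hist1h4n: ttttcactccGGTCCGcaagttccctataa
Hist1h4i: ttttcactccGGTCCGcaagttccctataa
Hist1h4h: tcttcaatcaGGTCCGaaaacactgcatat
Hist1h4f: tcctctaaaaGGTCCGcattcgccatatat
Hist1h4d: ttttcaaacaGGTCCGcattggtattataa
Hist1h4c: ttttcaaccaGGTCCGcagaaggcctattt
Hist1h4b: ttctcaaccaGGTCCGataagagcctataa
The run of Hist1h4m, Hist1h4n and Hist1h4i is the same in all 30 bases. In Hist1h4c the run lies at chr13:23698485-23698514, and a footprint spanned bases 23698475 to 23698501 in replicate 1 and 23698478 to 23698508 in replicate 2. In Hist1h4i (chr13:22041389-22041418) footprints spanned 22041380 to 22041417 and 22041380 to 22041415. The median position of the matches was -46.5 bp from the annotated start. A footprint overlapped 9 of the 10 in replicate 1, 8 in replicate 2 and 8 in both, where 1 shared base was enough. In Hist1h4f the footprint of replicate 1, 23551697 to 23551709, shared only its base 23551709 with the core. Hist1h4j had no footprint over the match in either library, and Hist1h4n had one in replicate 1 only. Counting matches open in both libraries in the promoters of the whole cluster, which include 1 outside the H4 class, 8 of 11 (72.7%) had a footprint in both libraries. Over all protein-coding promoters the figure was 355 of 1728 open matches, or 20.5%. A footprint says that bases were shielded, not by which protein.

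Hist1h4a was the strongest promoter of the cluster in replicate 1, and lay below Hist1h4c (8.14) and Hist1h4d (8.1) in replicate 2. It lacked the H4 core and held 4 matches to TTTNNCGC, here called E2F-like. Each N takes any base, so a match need not be a site of E2F factors. Such factors switch on genes of the G1 to S transition. The 200 upstream bases of Hist1h4a (chr13:23761250-23761449, minus strand, GRCm38.p6) are shown. The 4 E2F-like matches and 1 CCAAT box, here read on the opposite strand, are in capitals.
Hist1h4a: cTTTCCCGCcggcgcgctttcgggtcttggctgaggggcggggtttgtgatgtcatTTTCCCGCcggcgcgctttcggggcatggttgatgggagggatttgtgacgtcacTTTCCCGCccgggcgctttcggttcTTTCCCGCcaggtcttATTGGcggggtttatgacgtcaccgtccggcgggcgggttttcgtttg
All 200 bases were open (FDR of the cut rate under 0.05) in both libraries. Footprints overlapped 3 of the 4 E2F-like matches in both libraries, those centred at -214.5, -159.5 and -104.5 bp from the start, and none overlapped the match at -79.5 bp. Over the cluster, E2F-like matches occurred in 61.5% of H2A, 53.3% of H2B, 36.4% of H4, 16.7% of H1 and 0% of H3 promoters, against 6.32% of all promoters. Of the matches open in both libraries, 10 of 20 (50%) had a footprint in both libraries, against 28% over all promoters. Among the 10, the matches starting at 22035640 and 22035642, between Hist1h2ah and Hist1h2bk, overlap each other. Those starting at 23574390 and 23574392, near Hist1h2bf and Hist1h2ad, do so too, and 3 lie at Hist1h4a. The 10 are therefore not independent.

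H2A and H2B form the dimers at the flanks of the nucleosome, and their genes are mostly arranged as pairs that are transcribed away from each other. There were 12 head-to-head pairs with starts within 1000 bp, 11 of them an H2A with an H2B gene and the last Hist1h2bh with Hist1h3f. The gaps were 175 to 659 bp long, with a median of 268. In 9 pairs the gap held a peak and a footprint in both libraries. Each open H2A/H2B gap was open over 100% of its bases in both libraries, except that of Hist1h2ae and Hist1h2bg, which was open over 36.6% in replicate 1 and 100% in replicate 2. A peak in such a gap counts for both genes, so the 2 genes of a pair are not independent. The highest pair by the smaller of both percentiles was Hist1h2ad and Hist1h2bf, at 4.65 in replicate 1 and 5.58 in replicate 2 (percentiles 43.1 and 83.9). The lowest H2A gene was Hist1h2af, at 1.4 and 2.19, and the lowest H2B gene was Hist1h2bh, at 1.47 and 2.81. Hist1h2an and Hist1h2bp had the highest value of both classes in replicate 2, 6.63, beside 3.46 in replicate 1.

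The 173 bases between Hist1h2bf (left, minus strand) and Hist1h2ad (right, plus strand), chr13:23574208-23574380 in GRCm38.p6, are printed on the plus strand with matches to CCAAT, the box bound by the trimeric factor NF-Y, in capitals (ATTGG is CCAAT on the other strand).
Hist1h2bf/Hist1h2ad: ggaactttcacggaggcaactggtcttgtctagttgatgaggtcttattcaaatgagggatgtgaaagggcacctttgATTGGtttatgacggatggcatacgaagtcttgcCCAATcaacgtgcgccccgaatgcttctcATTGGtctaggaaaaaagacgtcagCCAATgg
Every base was open in both libraries. The gap holds 4 CCAAT boxes. Such a box was present in 100% of H2A and 100% of H2B promoters, 88.9% of H3, 83.3% of H1 and 27.3% of H4 promoters, against 39% of all protein-coding promoters. Of 63 CCAAT matches in the cluster open in both libraries, 7 (11.1%) had a footprint in both libraries, against 21.7% of open matches over all promoters. The octamer ATTTGCAT, bound by POU factors such as POU2F1 and known from H2B promoters, occurred in 6 of 15 H2B (40%) and 5 of 13 H2A promoters (38.5%), in part as the same site between a pair, against 1.57% of all promoters. Of 4 octamers open in both libraries, 0 had a footprint in both libraries, and 1 and 2 had one in replicates 1 and 2. Over all promoters 4.23% of open octamers had one in both.

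**Figure D2:**
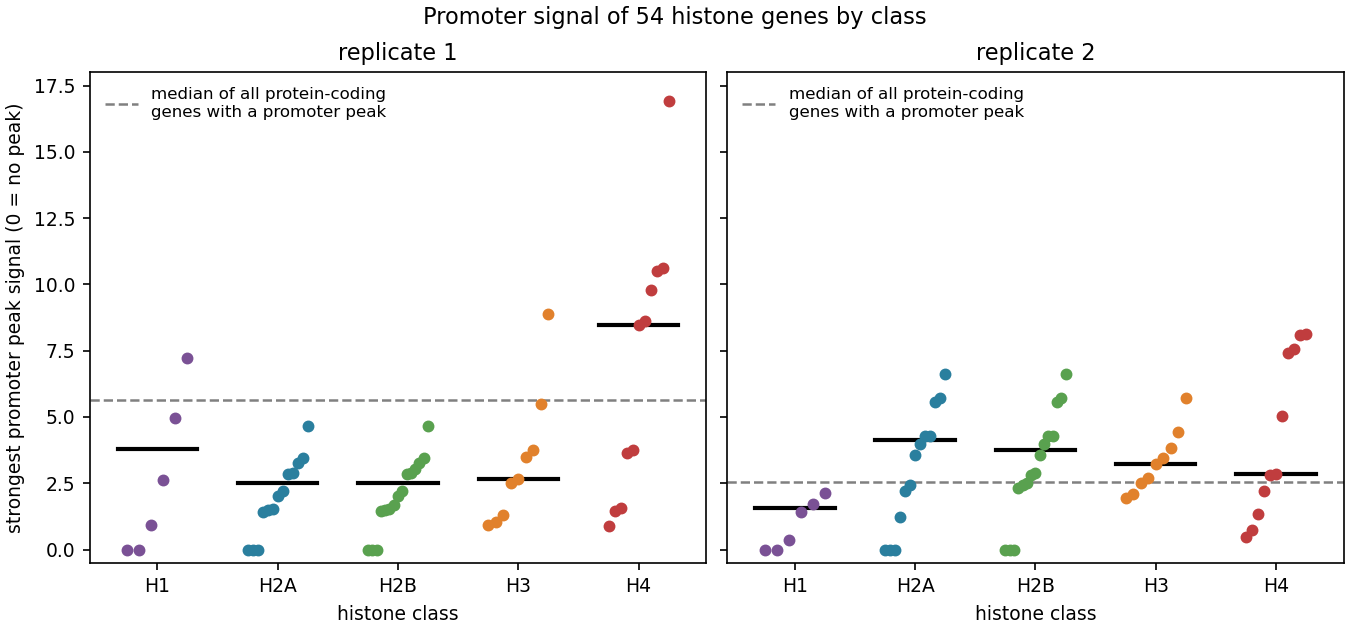
Strongest promoter peak signal (authors' units) of the 54 genes by class, replicate 1 at left and replicate 2 at right; each point is a gene, 0 means no peak, and black bars are class medians over genes with a peak. H4 leads in replicate 1 (median 8.45), whereas the H2A and H2B medians, 2.52 and 2.52 in replicate 1 and 4.13 and 3.77 in replicate 2, lie below the dashed median of all genes in replicate 1 (5.64) and above it in replicate 2 (2.54).

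H3 is the core histone whose tail carries many of the known chromatin marks, and the 9 H3 genes encode 2 distinct proteins. Their promoter signal had a median of 2.66 in replicate 1 and 3.24 in replicate 2. Hist1h3e was the highest, with 8.87 and 5.71 (percentiles 69.1 and 84.7), and Hist1h3d the lowest, with 0.919 and 2.08. The peak of Hist1h3d in replicate 1 was centred at 394.5 bp from the start and that in replicate 2 at -42.5 bp, so the libraries did not mark the same place there. The 200 bases upstream of Hist1h3e (chr13:23562386-23562585, minus strand, GRCm38.p6) were open throughout in both libraries and hold 4 CCAAT boxes on either strand, in capitals.
Hist1h3e: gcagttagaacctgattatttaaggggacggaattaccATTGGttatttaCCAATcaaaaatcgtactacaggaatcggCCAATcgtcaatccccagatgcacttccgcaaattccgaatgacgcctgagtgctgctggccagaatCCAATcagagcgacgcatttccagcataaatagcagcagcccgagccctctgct

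H1 genes encode the linker histones that bind DNA between nucleosomes, and the 6 genes encode 6 different proteins. Among the 4 with a peak, Hist1h1c ranked highest by the smaller percentile, with 4.98 in replicate 1 and 2.15 in replicate 2 (percentiles 45.4 and 44.0). Hist1h1e had 7.23 and 1.4, Hist1h1a 2.64 and 1.71, and Hist1h1b 0.912 and 0.375. Hist1h1b had the weakest peak of the class. Of the bases within 500 bp of its start, 66.8% were open in replicate 1, the lowest of the 4 genes, and 57.8% in replicate 2. The others of the 4 had 67.6% (Hist1h1c) to 85.3% (Hist1h1a) in replicate 1. In replicate 2 they had 41.4% (Hist1h1c) to 100% (Hist1h1e). The 200 bases upstream of Hist1h1c (chr13:23738607-23738806, plus strand, GRCm38.p6) show the H1 box AAACACA, an element known from H1 promoters, and a CCAAT box in capitals.
Hist1h1c: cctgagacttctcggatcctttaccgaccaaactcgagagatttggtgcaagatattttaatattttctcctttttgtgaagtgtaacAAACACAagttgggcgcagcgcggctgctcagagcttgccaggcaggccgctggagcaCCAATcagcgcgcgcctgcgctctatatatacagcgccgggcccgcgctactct
The H1 box occurred in 4 of 6 H1 promoters (66.7%), against 6.4% of all promoters. Of 3 H1 boxes in the cluster that were open in both libraries, 0 had a footprint in either, against 7.49% with one in both over all promoters. The box of Hist1h1b, open in replicate 1 alone, had a footprint there. TATAAA, the letters of the core promoter element that most mammalian promoters lack, occurred on either strand in 57.4% of the 54 promoters. Over all promoters it was 12.7%. The median position of the matches was -60.5 bp from the annotated start, and they were not limited to core promoter positions.

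The 8 genes without a peak near an annotated start fell into 3 kinds. Hist1h2bq, Hist1h2ao, Hist1h2ap and Hist1h2br are an inverted duplication: chr13:21801258-21811780 and chr13:21832162-21842684 are identical over 10523 bases, on opposite strands, and all 4 genes lie inside. In these genes 100% of 36-base and 100% of 75-base words near the start recur elsewhere, and no base was open in either library. Their part in the missing signal was not tested, for the reason given above. The 167 bases between Hist1h2bq and Hist1h2ao (chr13:21810200-21810366, plus strand, GRCm38.p6) also hold CCAAT boxes, 2 of them on either strand, in capitals.
Hist1h2bq/Hist1h2ao: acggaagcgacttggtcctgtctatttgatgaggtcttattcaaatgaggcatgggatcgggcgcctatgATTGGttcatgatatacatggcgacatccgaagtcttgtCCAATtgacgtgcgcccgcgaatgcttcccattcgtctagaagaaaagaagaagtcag
The second kind is the testis-type genes. Hist1h1t, the testis linker histone, lay in sub-cluster C between open genes, and Hist1h2ba and Hist1h2aa, the testis forms of H2B and H2A, are the head-to-head pair of sub-cluster D. None of the 3 had a peak, a footprint or an open base within 500 bp of its start in either library. Their sequence near the start was little repeated, 0% in Hist1h1t, 15.9% in Hist1h2ba and 3.6% in Hist1h2aa. The 200 bases upstream of Hist1h2ba (chr13:23934157-23934356, minus strand, GRCm38.p6) are shown because a closed promoter held the motifs too: 3 CCAAT boxes, the octamer, TATAAA and an H1 box (read on the opposite strand), in capitals.
Hist1h2ba: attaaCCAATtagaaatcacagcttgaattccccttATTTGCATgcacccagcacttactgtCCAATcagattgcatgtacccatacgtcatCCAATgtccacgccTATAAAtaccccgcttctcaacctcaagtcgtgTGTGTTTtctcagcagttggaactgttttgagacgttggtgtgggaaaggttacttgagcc
The third is Hist1h1d, whose GENCODE start (23553262) lies 1828 bases before the start of its coding sequence (23555090), in DNA with a CpG observed over expected of 0.115. At the coding start, and at the RefSeq start 23555032, Hist1h1d had a peak of 3.18 in replicate 1 and 1.07 in replicate 2. Counting from coding starts, an alternative chosen after seeing the data, 47 of 54 genes had a peak in both libraries, and from the RefSeq starts of the 54 genes also 47.

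The libraries ranked the cluster differently. The median percentile of the open histone promoters, among all protein-coding genes with a promoter peak, was 29.5 in replicate 1 and 61.3 in replicate 2. The ratio of promoter signal in replicate 1 over replicate 2 had a median of 0.822 over the 46 open histone genes and of 2.41 over 13531 protein-coding genes open in both. It was below 1 in 27 of the 46 (58.7%), against 2.76% of all protein-coding genes. The classes split: the ratio was below 1 in 9 of 10 H2A genes (median 0.633), 11 of 12 H2B genes (median 0.633) and 6 of 9 H3 genes (median 0.841). It was below 1 in 1 of 11 H4 genes (median 1.87) and 0 of 4 H1 genes (median 2.37). The genes of an open H2A/H2B pair shared their strongest peak and hence 1 ratio, such as 0.473 in Hist1h2bl and Hist1h2ai. The H2A and H2B counts are therefore not independent, and each such pair enters the 27 of 46 as 2 genes. Hist1h3i had the lowest ratio, 0.416, with signals of 1.04 and 2.5, and Hist1h1e the highest, 5.18. In the other replication-dependent histone genes, the 12 open Hist2h, Hist3h and Hist4h genes on other chromosomes, the median was 1.58 and 3 were below 1. In the 11 open genes of a list of replacement and other histones it was 2.71, and 1 was below 1: Cenpa, the centromeric H3 variant, with 2.99 and 4.12.

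Repeated sequence differed between the classes as well, and its part in the split was not tested. The share of repeated 36-base words near the start had a median of 50.1% in H2A, 47.8% in H2B, 32.6% in H3, 22.6% in H4 and 0.6% in H1 genes, against 0% over all genes. Among 147 other protein-coding genes with 30 to 70% repeated words the median ratio was 1.95, and 11.6% were below 1. Among 3128 genes in the histone genes' CpG range it was 2.56, and 0.927% were below 1. The median width of the strongest peak did not follow the split: it was 210 bp in replicate 1 and 240 bp in replicate 2 in H2A, 260 and 250 bp in H2B, 180 and 200 bp in H3, 200 and 200 bp in H4, and 270 and 230 bp in H1 genes, against 240 and 240 bp over all genes. The mean number of peaks per open gene fell from replicate 1 to replicate 2 in H2A (1.6 to 1.3) and H2B (1.67 to 1.33). It rose in H3 (1.44 to 1.67), H4 (1.09 to 1.18) and H1 (1.25 to 1.75), and over all genes (1.71 to 1.82). The part of peak calling in the split was not tested. With 1 library on each side of the ratio, a difference between the tissue samples and one between the libraries as prepared cannot be told apart.

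**Figure D3:**
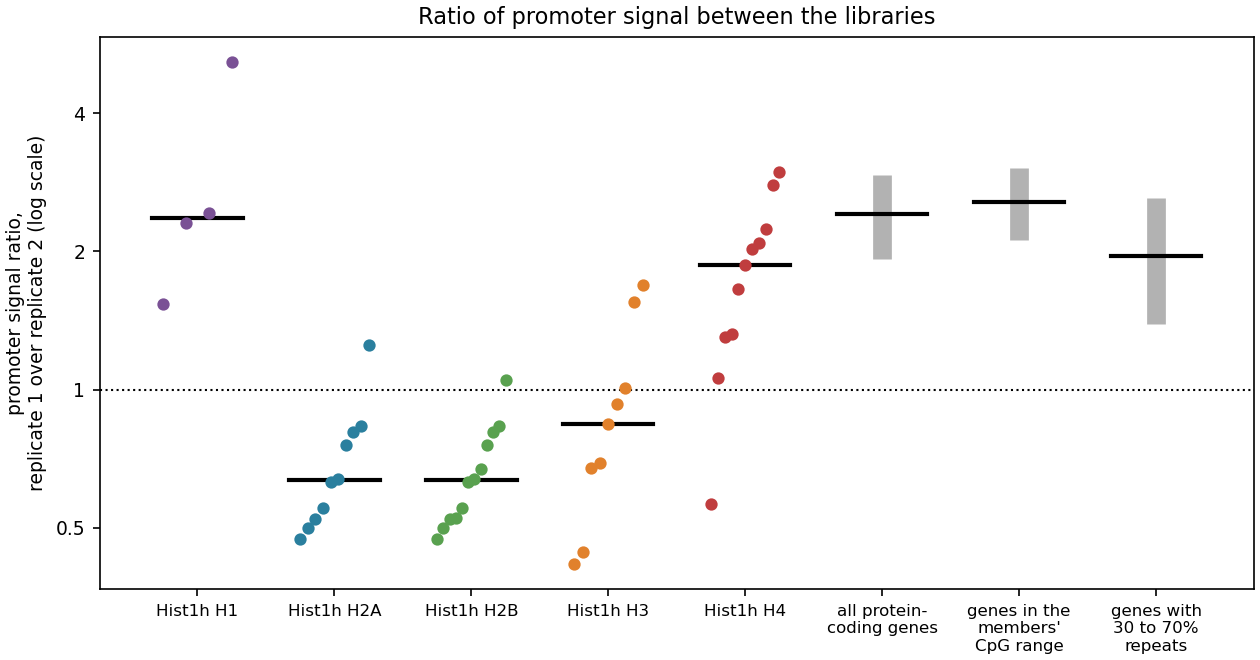
Ratio of promoter signal, replicate 1 over replicate 2, on a log scale; points are histone genes by class, black bars medians, and grey bars the span between the quartiles of each comparison set. Nearly all H2A and H2B points lie below 1 (dotted line), whereas the medians of H1 (2.37), H4 (1.87) and all protein-coding genes (2.41) lie above it. Both genes of an open H2A/H2B pair share a peak and are drawn at the same ratio.

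On average the histone genes were more open than all genes at and just before the start and less open 500 to 550 bp after it. Between 0 and 50 bp after the start, 81.7% of bases were open in replicate 1 and 83.3% in replicate 2 on average over the 54 genes, against 56.5% and 52.9% over all protein-coding genes. Between 500 and 550 bp after the start the order was the other way, with 13.1% and 22.5% in the histone genes, against 38.6% and 31.8% over all genes. Many histone genes end before that distance, such as Hist1h4k with an annotated span of 312 bp. The H1 genes went against this order, with 66.7% and 38.7%. At 450 to 400 bp before the start the histone genes had 22% in replicate 1 and 32.1% in replicate 2, against 24% and 26.3%. At 800 to 750 bp before the start 14.7% and 26.9% of bases were open in the histone genes, against 9.05% and 10.7% over all genes; neighbouring histone genes can lie within that distance. In the 250 bases upstream the median gene was open over 90.6% and 100% of its bases, against 62.8% and 52.8%. Within 500 bp on both sides the median was 59.3% and 54.2%, against 37.2% and 30.3%. Among the 3256 genes in the histone genes' CpG range it was higher, at 73.7% in replicate 1 and 66.7% in replicate 2. On this measure the histone genes were thus more open than all genes and less open than genes of like CpG.

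The shape differed between classes and between libraries. All 11 H4 genes were open in 100% of bases from 50 bp before to 50 bp after the start in both libraries. Further into the H4 genes, at 250 to 300 bp, 78.4% of bases were open in replicate 1 and 20.7% in replicate 2, against 52.8% and 43.6% over all genes. Upstream of the H3 genes, at 450 to 400 bp before the start, 0% of bases were open in replicate 1 and 66.7% in replicate 2, against 24% and 26.3% over all genes. The strongest peak of a histone gene was centred at a median of -10 bp from the start in replicate 1 and -78 bp in replicate 2. It lay upstream in 25 and 40 of 46 genes. Open H2A/H2B pairs share this peak, so 1 peak can count as upstream of both genes. In 10 of the 54 genes the annotation holds only coding sequence, so distances there are from the start of the coding sequence.

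**Figure D4:**
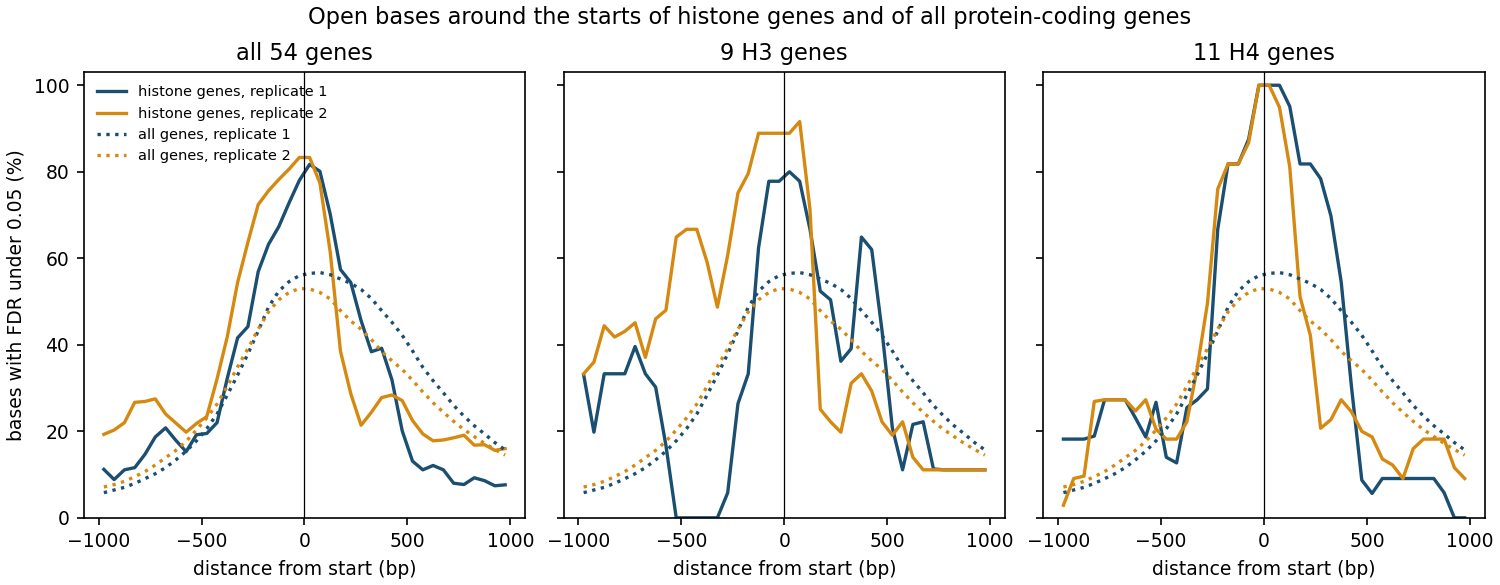
Mean share of bases with an FDR of the cut rate under 0.05, in 50-bp steps around the start, for all 54 histone genes, the 9 H3 genes and the 11 H4 genes (solid) and all protein-coding genes (dotted), replicate 1 in blue and replicate 2 in orange. H4 genes reach 100% at the start in both libraries, and the H3 genes show 66.7% in replicate 2 and 0% in replicate 1 at 450 to 400 bp before the start.

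Within 500 bp of the histone starts there were 238 footprints in replicate 1 and 192 in replicate 2, or 5.21 and 4.21 per kb, with a median width of 10 bases in both. Of these, 39.1% of replicate 1's overlapped one of replicate 2, and 49.5% of replicate 2's overlapped one of replicate 1. Over the genome the shares were 41.3% and 36%. The share at the histone genes was thus near that of the genome in replicate 1 and above it in replicate 2. Footprints seen in 1 library only were the larger part in both, as over the genome, though barely so in replicate 2.

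Between genes of a sub-cluster, over 500 bp from every histone start, 19 peaks were listed in replicate 1 and 22 in replicate 2. Of those of replicate 1, 14 overlapped a peak of replicate 2, and 12 of those of replicate 2 overlapped one of replicate 1. No tRNA gene lay within 500 bp of any. The peaks were ranked by the lower of both libraries' percentiles, here taken among all peaks of a library. The highest was chr13:23531661-23531840, at 5.43 in replicate 1 and 3.36 in replicate 2, 611 bp from the start of Hist1h4h and past its 3′ end. Next was chr13:23739661-23739940, inside Hist1h1c and 853 bp from its start, with 4.81 and 4.66. The peak at chr13:23554901-23555160 (3.18 and 1.07) holds the coding start of Hist1h1d. The peak at chr13:23598081-23598260 (2.27 and 1.45) lies within the long annotated span of Hist1h2be. The peak at chr13:23585781-23586020 (1.91 and 2.28) holds the coding start 23585956 of Hist1h2be, whose annotated 5′ end lies 35168 bases away. Thus 2 of these 5 peaks hold the coding start of a histone gene.

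At the other end of the genes, the stem-loop that SLBP binds to direct 3′ end formation was searched in the 300 bases after the stop codon. It was found in 53 of 54 genes (98.1%), against 78 of 21664 protein-coding genes (0.36%), and Hist1h2an was the exception. It lay 24 to 56 bases after the stop codon, with a median of 31. The 3 commonest of 7 sequences are shown with their genes counted, because, within the cluster, the third was found in H4 genes alone (7 of 7).
33 genes: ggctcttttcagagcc
8 genes: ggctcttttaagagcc
7 genes: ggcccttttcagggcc
The closed testis-type genes carried it too: Hist1h1t and Hist1h2ba had the second sequence and Hist1h2aa the first. In the 250 bases after the stop codon the histone genes averaged 15.5% open bases in replicate 1 and 21.6% in replicate 2, against 4.06% and 3.17% over all genes. Histone genes are short, so these bases lie close to the start, unlike in most genes. The median was 0% in both libraries, for the histone genes and for all genes. The mean was highest in H1 genes, at 50.3% and 50.9%, and in replicate 1 it was 4.18% in H2A and 4.64% in H2B genes. In replicate 2 these 2 classes had 15% and 22.3%.

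The genes for the factors of the cluster were examined for comparison. All 13 matched genes of the histone locus body and histone mRNA factors were open at the promoter in both libraries, as were 61.9% of all protein-coding genes and 96.1% of those in the histone genes' CpG range. The median of their signals was 12.3 for replicate 1 and 4.72 for replicate 2, against 5.64 and 2.54 over all genes. Npat had 19.7 and 8.68, Hinfp 12.8 and 6.88, Slbp 12.3 and 4.11, and Casp8ap2, which encodes the FLASH protein of the histone locus body, 12.9 and 9.2. Their median ratio between the libraries was 2.56, and 0 of 13 were below 1, against 2.41 and 2.76% over all genes.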

How the data were processed

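DNase-seq files of 2 libraries of 1 group were used. Per the file listings, each file was made by the authors from 1 library's alignment on mm10, so nothing was pooled. The deposited peak lists give a signal per peak with no stated scaling. The aligner, caller and read length are not named in the sources used. The deposited FDR files give a q-value of the cut rate per run of bases and list runs under 0.05, and deposited footprints all carry the same score, 0.01, so they were not ranked. The longer peak list of each library was used. Gene models were GENCODE M21 on GRCm38.p6, the assembly mm10 names; RefSeq starts of the same assembly were matched for 54 of 54 genes. A promoter peak overlapped by at least 1 bp the 500 bp on either side of a start of a protein-coding transcript, and the strongest counted. Percentiles of promoters are among protein-coding genes with a promoter peak in that library, and those of peaks between genes are among all peaks of that library. An open base had an FDR under 0.05. Motifs were searched as exact letters on both strands from 250 bases before to 50 after the annotated 5′ end, and are descriptions, not binding sites. A footprint counted at a match if it shared at least 1 base with it. Printed sequences come from the GRCm38.p6 genome and start upstream of both the GENCODE and the RefSeq start, save the 30-base H4 runs. Repeated words of 36 and 75 bases were counted over the genome as an illustration, since the read length is unknown. Overlap and repeat counting were tested on simulated data. Analyses used Python 3.11.15 with numpy 2.4.6, pandas 2.3.3, pysam 0.24.0, numba 0.67.0 and matplotlib 3.10.9.

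The histone genes and the gene lists were chosen with earlier results of these data known. In each class the text names the highest and the lowest gene by the smaller of both libraries' percentiles, every gene without a peak, the testis-type genes and the 5 highest peaks between genes; other genes named were chosen after their values were seen. Of the listed factors and replacement histones, 13 of 14 and 14 of 16 entries matched a gene. Overlapping matches, of the same motif or of different motifs, were counted separately. Genes and peaks are not replicates, so no p-value was computed. Alternatives were other windows, the stricter peak lists, equal numbers of peaks, gene 5′ ends only, larger overlaps, a stricter FDR and leaving out either library.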

Additional observations from a re-analysis of the deposited data

How the results depend on the processing

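The count of histone genes whose promoter had a peak in both libraries was 46 and lay between 44 and 47 under every alternative run, including the coding starts chosen after seeing the data. It was 46 to 46 with either library left out. The median promoter signal, 3.1 ± 0.343 (SD over 2 libraries), was 2.86 to 3.35 with either library left out. The signal scale differs between the libraries, so this mean and SD do not measure their agreement. Read against other genes, the median percentile was 29.5 in replicate 1 and 61.3 in replicate 2. The median share of open bases, 56.8% ± 3.6, was 54.2% to 59.3% with either library left out and 58.1% without the 4 wholly repeated genes, an alternative also added after seeing the data. It moved to 50.4% at an FDR under 0.01, to 77.3% in a window of 250 bp and to 31.2% in a window of 1000 bp, by construction of the windows and the threshold. Footprints in both libraries were found at 45 genes, and at 45 to 46 with either library left out. Of 14 peaks between genes found in both libraries, 7 lay over 1000 bp from every histone start, and single libraries gave 19 to 22. Motif counts over the 54 histone genes in 500 bases before the start stayed within 1.5 times those in 250. The shares over all promoters rose as well. For TATAAA the share went from 12.7% to 24.7% over all promoters and from 57.4% to 66.7% in the histone genes. No paired analysis was possible because there is 1 group. Depth in reads is unknown. In 6 genes over 70% of the 36-base words near the start are repeated, and 2 of the 6 had a peak in both libraries.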

Other observations

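Genes of other families lie among the histone genes and had a promoter peak in both libraries less often than these. Between the first and the last histone gene lie 36 annotated vomeronasal receptor genes of the Vmn1r family (Vmn1r216 is annotated at more than 1 place), which encode receptors for pheromones, and 0 of them had a promoter peak in both libraries. Of 13 other protein-coding genes there, 6 had one in both (46.2%), against 61.9% over all protein-coding genes. The median observed over expected CpG was 0.0834 in the vomeronasal receptor genes and 0.337 in the other 13, against 0.876 in the histone genes. The part of CpG in these counts was not tested. The zinc finger genes Zfp322a (11.6 in replicate 1 and 5.52 in replicate 2) and Zfp184 (5.19 and 3.01) and Abt1 (10.9 and 5.03) were the strongest of the 13. The solute carrier genes Slc17a1, Slc17a2, Slc17a3 and Slc17a4 had none in either library.

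The stretch between sub-clusters A and B held no histone gene and 31 tRNA genes in 202 kb, and its peak density was 173 per Mb in replicate 1 and 198 in replicate 2, close to that of sub-cluster A (187 and 204). The longer stretch between sub-clusters B and C, 1488 kb with 46 tRNA genes, had 51.8 and 57.1 peaks per Mb.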
